A study of Mus musculus with 8 samples.

Results

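The 10 genes described here encode adaptors and kinases of the MyD88 pathway, namely Myd88, Tirap, Unc93b1, Irak4, Irak1, Irak2, Irak3, Traf6, Traf3 and Map3k7. They were chosen by gene symbol, although with earlier results of these data known, and were followed in 8 mouse liver tumors. All 10 were among the 55536 genes counted, and all 10 were among the 15998 genes with enough counts to be tested. The HCA-1 line, a mouse hepatocellular carcinoma line, was injected under the liver capsule of male C3H mice, which have their own immune system. The labels give the age of the mice as 6 to 8 weeks, and the methods of the study as 4 to 6 weeks. On day 17, 4 mice (labelled IMQNP) received a single intravenous dose of PFSUV-IMQ at 4 mg/kg, and 4 mice (labelled Control) received saline by the methods of the study, although a legend calls them untreated. PFSUV-IMQ is imiquimod, a small-molecule agonist of the endosomal receptor TLR7, carried in phospholipid-free small unilamellar vesicles of cholesterol and Tween80. Tumors were taken 3 h later, 1 library per tumor, with replicate numbers 1, 3, 4 and 5 after saline and 1, 2, 3 and 4 after PFSUV-IMQ. The question was how far the parts of the receptor's own signaling chain changed in transcript level within 3 h of a dose that carries its agonist. No group received empty vesicles, so effects of imiquimod and of its carrier cannot be told apart here.

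MyD88 is the adaptor that joins most Toll-like receptors, and the receptors of IL-1 and IL-18, to the kinases below them. After ligand binding, MyD88 and IRAK4 assemble into a complex that brings in IRAK1 and IRAK2, which then engage the ubiquitin ligase TRAF6, and TRAF6 activates the kinase TAK1, the product of Map3k7. From there the signal runs to NF-kappaB and MAP kinases, while in endosomes of plasmacytoid dendritic cells it also runs to IRF7 and type I interferon. UNC93B1 carries the endosomal receptors to their compartment, TIRAP bridges MyD88 to receptors at the cell surface, TRAF3 serves the interferon branch, and IRAK3 (IRAK-M) restrains the pathway in macrophages. Most of this chain is driven by protein contacts, phosphorylation and ubiquitin, which transcript counts do not measure.

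Total counts were 16883911 to 27687756 per saline tumor and 17008151 to 18527613 per PFSUV-IMQ tumor. At these depths 3 counts correspond to 0.105 to 0.210 normalized CPM (library sizes scaled by the TMM factors of edgeR), a floor that covers counting error only, and every one of the 10 genes lay above it in every tumor. Genes used as markers of liver tumor cells (Afp, Gpc3, Krt8, Krt18 and Epcam) were detected in all 8 tumors, with a summed level of 1272 to 2132 CPM after saline and 1006 to 2057 CPM after PFSUV-IMQ. Krt8 and Krt18 made up nearly all of this sum, with saline means of 686 and 886 CPM. Saline means of Afp, Gpc3 and Epcam were 5.46, 1.23 and 8.71 CPM. Hepatocyte genes were also detected in all 8, with a summed level of 4268 to 32314 CPM after saline and 6039 to 32899 CPM after PFSUV-IMQ. PFSUV-IMQ replicate 2 stood apart in its group, since its hepatocyte sum was 32899 CPM against at most 8742 CPM in the other 3, and its neutrophil marker sum was 155 CPM against at most 50.8 CPM. Its liver tumor cell sum was the lowest of all 8 tumors, at 1006 CPM against 1515 to 2057 CPM in the other 3 PFSUV-IMQ tumors. The log2 fold changes of the 10 genes and of the called pathway genes are therefore also given without that tumor. In whole tumors, fewer cells of a type and less RNA per cell cannot be told apart.

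Of the 10 genes, only Myd88 changed by the test, and it rose 2.37-fold. A gene was called where the quasi-likelihood test of edgeR gave a p under 0.05 once adjusted, by the Benjamini-Hochberg method, for all genes tested. By that rule 394 of the 15998 genes (2.46%) were higher and 35 (0.219%) were lower after PFSUV-IMQ. Among the 10 genes, 1 was called higher and 0 lower, here as by the Wald test of DESeq2 and by edgeR's exact test, and 1 had an unadjusted p under 0.05. Myd88 was also the only gene of the 10 whose groups did not overlap, a pattern that 6.00% of all genes showed with every PFSUV-IMQ tumor above every saline tumor and 3.28% showed with every one below. The remaining 9 overlapped between the groups. Log2 fold changes were above 0 for 6 of the genes and below 0 for 4, with a median of 0.13 against -0.03 over all genes tested, of which 46.0% were above 0. PFSUV-IMQ replicate 2 had the highest level of its group for 7 of the 10 genes, whereas it did so for 34.8% of all genes.

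**Figure D1:**
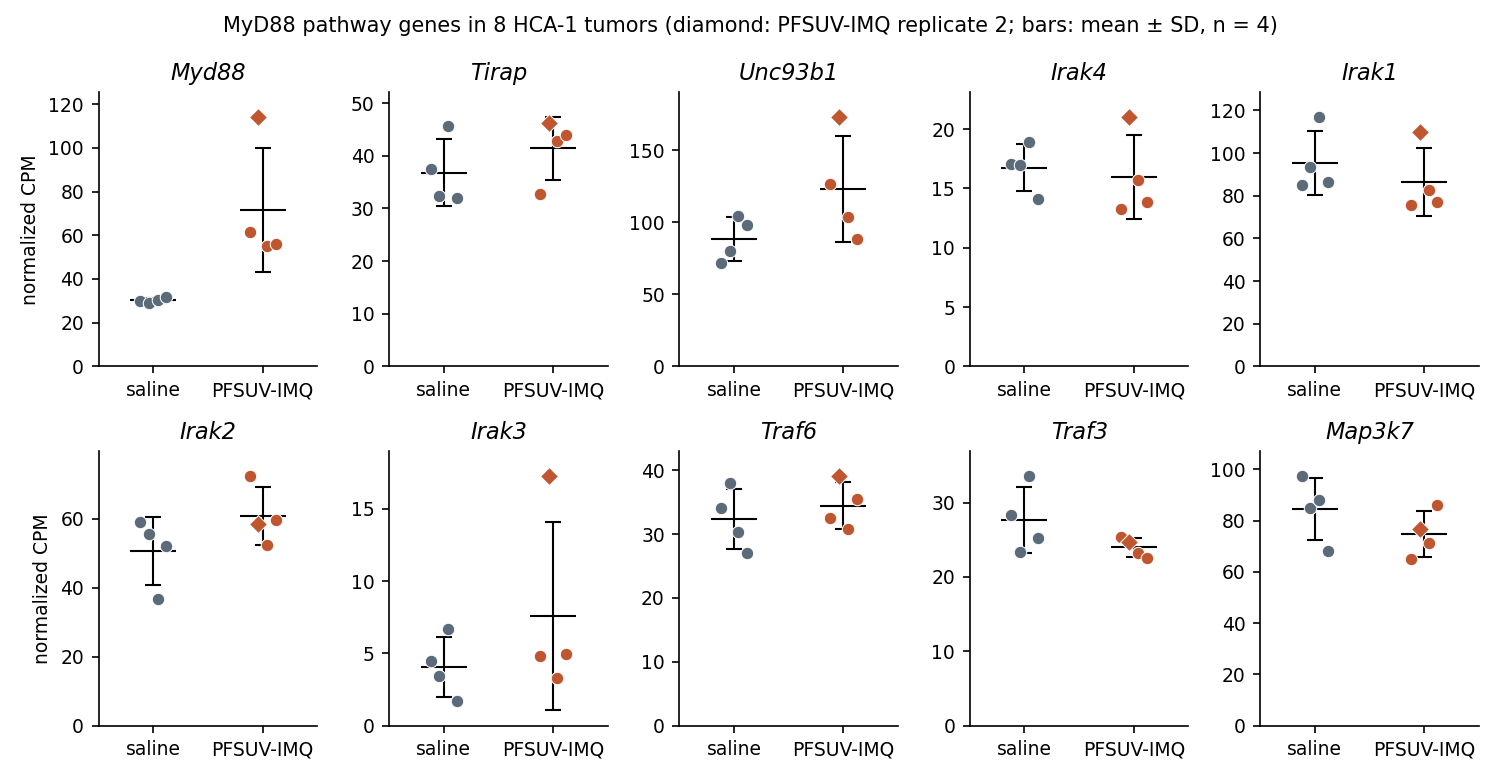
Normalized CPM of each of the 10 genes (vertical axes from 0) in each of the 4 saline and 4 PFSUV-IMQ tumors, with bars at the mean ± SD and a diamond for PFSUV-IMQ replicate 2. The groups lie apart for Myd88 alone, whose saline tumors sit between 29.0 and 31.7 CPM and whose PFSUV-IMQ tumors sit between 55.0 and 114 CPM.

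Myd88 (ENSMUSG00000032508) lies on the minus strand of chr9:119335934-119341411 in GRCm38. Its level was 29.9, 29.0, 30.5 and 31.7 CPM in saline replicates 1, 3, 4 and 5, and 61.3, 114, 55.0 and 56.2 CPM in PFSUV-IMQ replicates 1 to 4. The saline tumors were close to each other, all 4 PFSUV-IMQ tumors were higher, and replicate 2 was 1.98 times the mean of the other 3. Its mean was 71.7 ± 28.4 CPM with PFSUV-IMQ and 30.3 ± 1.16 CPM with saline (SD, n = 4 each). Its log2 fold change was 1.24, with a standard error of 0.24, a 95% confidence interval of 0.69 to 1.79 and an adjusted p of 0.0287 in edgeR's quasi-likelihood test. Without PFSUV-IMQ replicate 2 the mean was 57.5 ± 3.34 CPM, the log2 fold change was 0.91 and the adjusted p was 0.00966. The call held without each of the other PFSUV-IMQ tumors, and it was lost when a saline tumor was left out, at adjusted p values of 0.0965, 0.101, 0.0803 and 0.0586 without saline replicates 1, 3, 4 and 5. In those 4 fits the log2 fold change was 1.22 to 1.26.

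Exons of Acaa1a, a peroxisomal thiolase gene on the opposite strand, cover 11.3% of the exon bases of Myd88, and the sources used here do not say whether counting took strand into account. Acaa1a was at 55.1, 61.7, 97.8 and 76.8 CPM after saline and at 74.5, 123, 79.9 and 62.6 CPM after PFSUV-IMQ. Its groups overlapped, and its highest value fell in the same tumor as that of Myd88. How much reads of Acaa1a add to the Myd88 count was not tested.

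The promoter of Myd88 is shown because Myd88 is the gene of the 10 that rose, and because its upstream bases hold the letters of a pair of interferon-related motifs. Interferon regulatory factors bind the ISRE, searched here by the core GAAANNGAAA, STAT dimers bind the GAS element, searched by TTCNNNGAA, and NF-kappaB binds kappaB sites, searched by the loose form GGGNNNNNCC. Searched on both strands over the 250 bases before each RefSeq start in GRCm38.p6, the ISRE core was in 2.98% of 32851 promoters, the GAS letters in 7.02%, the kappaB letters in 45.8%, and ISRE core and GAS together in 0.332%. For 9 of the 10 genes a promoter was given, and among these the ISRE core and the GAS letters were in 1 each, in both cases Myd88. In Myd88 the GAS letters ran from base -46 to -38 and the ISRE core from -40 to -31 before the start, so that they share 3 bases. The bases shown, chr9:119340042-119340268 on the minus strand, lie before the RefSeq start but within the longer GENCODE model of Myd88, in an intron between its exons, and read 5′ to 3′ as follows with GAS and ISRE core in capitals.
Myd88: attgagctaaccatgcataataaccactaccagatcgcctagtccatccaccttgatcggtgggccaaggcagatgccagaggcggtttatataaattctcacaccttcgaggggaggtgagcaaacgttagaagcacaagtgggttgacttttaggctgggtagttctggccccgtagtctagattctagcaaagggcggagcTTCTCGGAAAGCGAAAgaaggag
The kappaB letters were not in this window of Myd88, and were in a window of 7 of the 9 genes. A match is a match of letters only, and binding was not measured in these tumors.

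Tirap and Unc93b1, which act beside the receptors, did not change by the test. Tirap (chr9:35184551-35200291), the bridging adaptor, was at 37.5, 32.3, 45.6 and 31.9 CPM after saline and at 32.8, 46.3, 42.8 and 43.9 CPM after PFSUV-IMQ. The groups shared most of their range, and the log2 fold change was 0.17 (95% confidence interval -0.23 to 0.57, adjusted p = 0.784), or 0.10 without PFSUV-IMQ replicate 2. Exons of Gm39318 and Srpr on the opposite strand cover 9.84% of the exon bases of Tirap. Srpr was at 131.5 to 149 CPM after saline and 149.5 to 196.5 CPM after PFSUV-IMQ. Unc93b1 (chr19:3935186-3949340), the chaperone that TLR7 needs to reach the endosome, was at 71.5, 80.3, 104 and 98.2 CPM after saline and at 126, 173, 104 and 88.6 CPM after PFSUV-IMQ. PFSUV-IMQ replicates 1 and 2 lay above all saline tumors and replicates 3 and 4 lay among them. Its log2 fold change of 0.47 (95% confidence interval -0.04 to 0.99, adjusted p = 0.444) was 0.25 without PFSUV-IMQ replicate 2, with an adjusted p of 0.631.

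The 4 IRAK genes did not move as a group, with log2 fold changes from -0.15 for Irak1 to 0.89 for Irak3, and none passed the test. Irak4 (chr15:94543643-94581815), the first kinase recruited to MyD88, was at 17.1, 16.9, 18.9 and 14.1 CPM after saline and at 13.2, 21.0, 15.7 and 13.9 CPM after PFSUV-IMQ. The PFSUV-IMQ group spanned both the lowest and the highest of the 8 values, and the log2 fold change was -0.07 (95% confidence interval -0.51 to 0.37, adjusted p = 0.937), or -0.25 without replicate 2. Irak1 (chrX:74013914-74023918), the kinase that IRAK4 phosphorylates, was at 84.8, 93.4, 117 and 86.4 CPM after saline and at 75.4, 110, 82.7 and 77.1 CPM after PFSUV-IMQ. Of the PFSUV-IMQ tumors, 3 lay below all saline tumors and replicate 2 lay among the saline values. The log2 fold change of Irak1 was -0.15 (95% confidence interval -0.55 to 0.26, adjusted p = 0.821), or -0.30 without replicate 2. Irak2 (chr6:113638467-113695026), which carries the later phase of the signal, was at 58.9, 55.4, 36.6 and 52.0 CPM after saline and at 72.3, 58.3, 52.4 and 59.7 CPM after PFSUV-IMQ. The low saline tumor was replicate 4, and the log2 fold change of 0.26 (95% confidence interval -0.16 to 0.67, adjusted p = 0.655) was the same to 2 decimals without PFSUV-IMQ replicate 2.

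Irak3 (chr10:120141648-120202130), the inhibitory member, was the lowest of the 10, with 32 to 247 counts per tumor. Its level was 4.47, 3.41, 6.66 and 1.74 CPM after saline and 4.80, 17.3, 3.29 and 4.96 CPM after PFSUV-IMQ. The PFSUV-IMQ tumors other than replicate 2 lay within the saline range, and replicate 2 was 3.97 times their mean. The log2 fold change of 0.89 (95% confidence interval -0.39 to 2.17, adjusted p = 0.604) was 0.08 without that tumor. Exons of Tmbim4 and Gm47009 on the opposite strand cover 5.99% of the exon bases of Irak3, and Tmbim4 was at 32.3 to 44.6 CPM after saline and 53.0 to 80.3 CPM after PFSUV-IMQ. For Irak4 the shared part was 7.87% (Twf1), for Irak2 4.44% (Gm43963) and for Irak1 2.99% (the microRNA genes Mir5132 and Mir718 on its own strand). Twf1 was at 78.46 to 109.9 CPM after saline and 67.75 to 95.44 CPM after PFSUV-IMQ, above Irak4 in both groups. How much reads of these neighbours add to each count was not tested.

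The TRAF genes and the kinase below them did not change by the test. Traf6 (chr2:101678429-101701669), whose product joins the IRAK complex to TAK1, was at 34.1, 38.0, 30.2 and 27.1 CPM after saline and at 32.4, 39.1, 30.8 and 35.5 CPM after PFSUV-IMQ. Its groups covered nearly the same range, and the log2 fold change was 0.09 (95% confidence interval -0.27 to 0.45, adjusted p = 0.895), or 0.0052 without PFSUV-IMQ replicate 2. Traf3 (chr12:111166370-111267153), which links the receptors to interferon production, was at 28.4, 23.4, 33.6 and 25.2 CPM after saline and at 25.4, 24.7, 23.2 and 22.6 CPM after PFSUV-IMQ. PFSUV-IMQ replicates 3 and 4 lay below all saline tumors and replicates 1 and 2 lay among them, and the log2 fold change was -0.21 (95% confidence interval -0.56 to 0.15, adjusted p = 0.687), or -0.24 without replicate 2. Map3k7 (chr4:31964097-32023467), the gene of TAK1, was at 97.3, 84.8, 88.0 and 68.0 CPM after saline and at 65.1, 76.8, 71.2 and 86.2 CPM after PFSUV-IMQ. The lowest saline tumor lay inside the PFSUV-IMQ range, and the log2 fold change was -0.18 (95% confidence interval -0.54 to 0.19, adjusted p = 0.748), or -0.21 without PFSUV-IMQ replicate 2. Of the 9 genes that were not called, 8 had an interval that stayed within a log2 change of 1 in either direction, and the exception was Irak3.

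**Figure D2:**
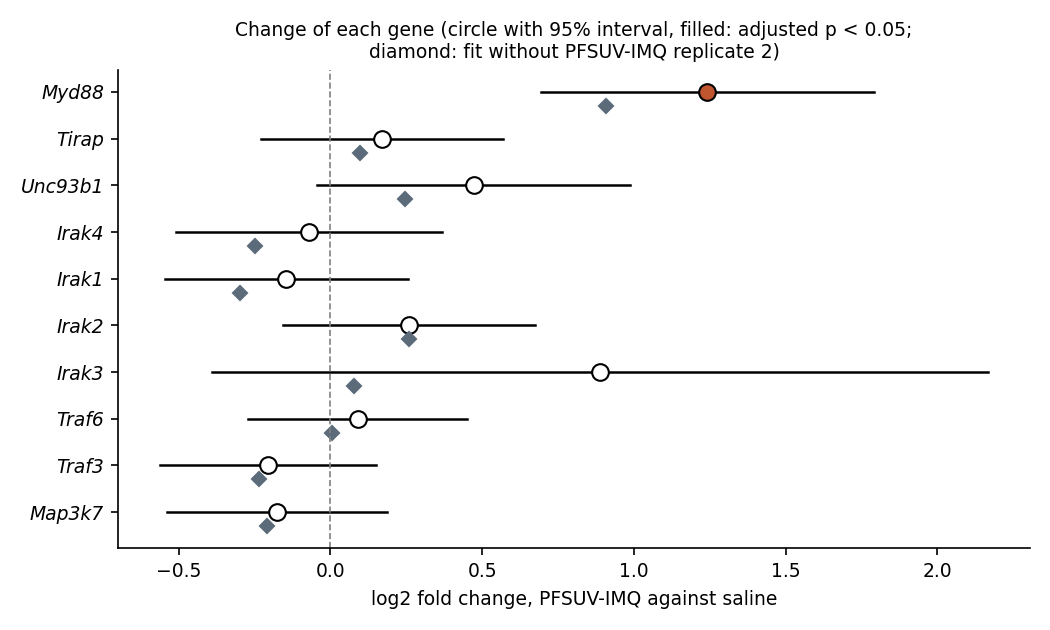
Log2 fold change of PFSUV-IMQ against saline for the 10 genes (horizontal axis), with the 95% confidence interval as a line, a filled circle at an adjusted p under 0.05, and a diamond for the fit without PFSUV-IMQ replicate 2. The interval of Myd88, 0.69 to 1.79, lies above 0, those of the other 9 include 0, and Irak3 moves from 0.89 to 0.08 without replicate 2.

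Per kilobase of exon, used to set levels against each other between genes, the 10 transcripts spanned a wide range. The length was that of all annotated exons merged, whether or not they are used in these tumors, so the order between genes is approximate. After saline Unc93b1 was highest at 29.2 ± 5.03 CPM per kilobase (SD, n = 4), followed by Irak1 at 20.2 ± 3.15, Map3k7 at 13.2 ± 1.90, Myd88 at 11.8 ± 0.449 and Irak2 at 11.5 ± 2.24. Tirap at 7.47 ± 1.29, Traf6 at 4.11 ± 0.601, Traf3 at 3.76 ± 0.606 and Irak4 at 3.34 ± 0.396 CPM per kilobase came next, and Irak3 was last at 1.11 ± 0.561. The ranges of neighbours in this order were apart for Irak1 over Map3k7, Tirap over Traf6 and Irak4 over Irak3, and those of all other neighbours overlapped. Unc93b1 was nonetheless above Irak1 within each of the 4 saline tumors.

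After PFSUV-IMQ, Myd88 stood at rank 2 in place of rank 4, at 27.8 ± 11.0 CPM per kilobase. It lay between Unc93b1 at 40.5 ± 12.2 and Irak1 at 18.3 ± 3.38 CPM per kilobase, and its range overlapped with those of both. Within each of the 4 PFSUV-IMQ tumors, Myd88 was nonetheless below Unc93b1 and above Irak1. Below them were Irak2 at 13.8 ± 1.89, Map3k7 at 11.7 ± 1.40, Tirap at 8.41 ± 1.21, Traf6 at 4.37 ± 0.462, Traf3 at 3.26 ± 0.180, Irak4 at 3.18 ± 0.703 and Irak3 at 2.06 ± 1.77 CPM per kilobase. Here the neighbours whose ranges were apart were Map3k7 over Tirap, Tirap over Traf6 and Traf6 over Traf3. Irak2 was above Map3k7 within each of the 4 tumors, although their ranges overlapped.

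**Figure D3:**
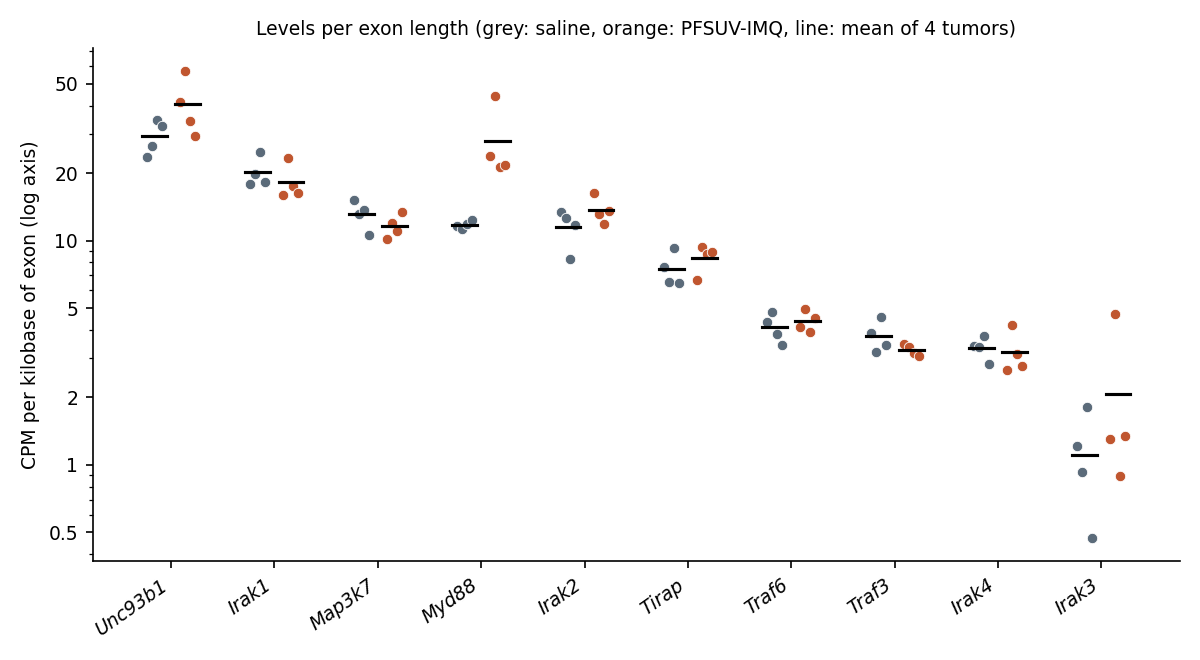
CPM per kilobase of exon (logarithmic axis) of the 10 genes in order of their saline mean, with a point for each tumor, grey for saline and orange for PFSUV-IMQ, and a line at the mean of 4 tumors. Unc93b1 is at the top and Irak3 at the bottom in both groups, and Myd88 goes from 11.8 to 27.8 CPM per kilobase.

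Since MyD88 and the IRAK proteins sit in the same complex, the levels per kilobase were also set against each other within each tumor, with Irak4 as the common denominator. These 4 ratios were chosen after the values were seen and do not depend on the library size. Their p-values are therefore not evidence independent of the levels given above. Myd88 to Irak4 was 3.42, 3.33, 3.14 and 4.38 after saline and 9.02, 10.6, 6.82 and 7.88 after PFSUV-IMQ. All 4 PFSUV-IMQ tumors lay above all saline tumors, and replicate 2 was here only a little above replicate 1. The mean ratio was 3.57 ± 0.552 after saline and 8.58 ± 1.61 after PFSUV-IMQ, with an exact two-sided permutation p of 0.0286, the smallest that 4 against 4 tumors allow, and 0.114 after Benjamini-Hochberg adjustment over the 4 ratios. The ratio of Irak1 to Irak4 was 6.06 ± 0.602 and 5.78 ± 0.246 (exact permutation p = 0.429, adjusted 0.429), that of Irak2 to Irak4 was 3.51 ± 0.897 and 4.51 ± 1.34 (exact permutation p = 0.343, adjusted 0.429), and that of Irak3 to Irak4 was 0.320 ± 0.132 and 0.597 ± 0.362 (exact permutation p = 0.143, adjusted 0.286).

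The 5 genes whose pattern over the 8 tumors was most like that of Myd88 were found by the root-mean-square difference of log2 CPM, each gene centred on its own mean. They were Rasgef1b at 0.110, Usb1 at 0.136, Nod1 at 0.154, Fcgr1 at 0.159 and Cnn1 at 0.162. Nod1 is a cytosolic sensor of bacterial peptidoglycan, Fcgr1 the high-affinity IgG receptor of macrophages and monocytes, Usb1 an enzyme of U6 RNA processing, Rasgef1b an exchange factor of Ras-family proteins, and Cnn1 the smooth muscle calponin. Usb1 (log2 fold change 1.19, adjusted p = 0.00646), Nod1 (1.39, 0.0272) and Fcgr1 (1.32, 0.0290) were called higher, while Rasgef1b (1.26, 0.0520) and Cnn1 (1.11, 0.128) were not. Cnn1 was near 1 CPM, so that its likeness rests on few counts. Likeness over 8 tumors in 2 groups says nothing of shared control.

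Around the 10 genes, 114 further genes of the pathway were listed by role, of which 110 were tested, 5 were called higher and 1 lower, against 2.46% and 0.219% of all genes. Their log2 fold changes were above 0 for 74 and below 0 for 36, with a median of 0.26, or 0.09 without PFSUV-IMQ replicate 2. Over all genes tested, 46.0% were above 0. Counts at an unadjusted p under 0.05, here and for the 10 genes, are given without the share over all genes and cannot be set against it. Among the 17 receptors that recruit MyD88, 0 were called higher by edgeR's quasi-likelihood test, 1 was called lower, and 5 had an unadjusted p under 0.05. The Wald test of DESeq2 and edgeR's exact test each called 2 higher, Tlr2 and Tlr9. The log2 fold change of Tlr9 was 1.56 (adjusted p = 0.0939 in the quasi-likelihood test), and its groups overlapped. Tlr7, the receptor of imiquimod, was at 7.33, 7.41, 9.54 and 5.92 CPM after saline and at 11.2, 25.0, 7.42 and 7.50 CPM after PFSUV-IMQ. Its groups overlapped, and the log2 fold change of 0.75 (adjusted p = 0.492) was 0.18 without replicate 2. Tlr2, a receptor of bacterial lipoproteins, had the largest value of the list at 1.84 (adjusted p = 0.0736), with all PFSUV-IMQ tumors above all saline tumors, and without replicate 2 it was 1.05 with an adjusted p of 0.00453. Tlr11, a receptor of microbial profilin, fell from 5.05 ± 1.76 to 1.12 ± 0.341 CPM (log2 fold change -2.17, adjusted p = 0.0111, or -2.15 without replicate 2), and it was called whichever of the 8 tumors was left out.

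Of 12 tested partners of the ubiquitin and TAK1 step, Peli1 and Rnf31 were called higher and 0 lower. Peli1, an E3 ligase that acts with the IRAKs, was at 40.7, 52.7, 42.4 and 32.1 CPM after saline and at 81.2, 185, 108 and 115 CPM after PFSUV-IMQ. Its log2 fold change was 1.54 (adjusted p = 0.0153), or 1.25 without PFSUV-IMQ replicate 2, and the call was lost without saline replicate 1 (adjusted p = 0.0664). Rnf31, the catalytic subunit of the linear ubiquitin ligase complex, was at 28.6, 29.2, 27.3 and 39.6 CPM after saline and at 90.3, 126, 78.8 and 83.9 CPM after PFSUV-IMQ. Its log2 fold change was 1.60 (adjusted p = 0.00327), or 1.42 without PFSUV-IMQ replicate 2, and the call held whichever tumor was left out. Beside them in the pathway, the log2 fold change was 1.24 for Myd88, 0.09 for Traf6 and -0.18 for Map3k7, and the differences between these genes were not tested. Peli3, a relative of Peli1, had the lowest value of the list at -0.80 (adjusted p = 0.381).

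The other called genes were at the ends of the pathway. Irf7, the interferon regulatory factor that MyD88 engages in endosomes, rose from 67.8 ± 13.3 to 520.4 ± 219 CPM (log2 fold change 2.94, adjusted p = 0.00121), with a log2 fold change of 2.58 without PFSUV-IMQ replicate 2. Socs1, an inhibitor of JAK kinases and of TLR signaling, rose from 7.26 ± 2.36 to 48.6 ± 35.9 CPM (log2 fold change 2.74, adjusted p = 0.0137), and its call was lost without saline replicate 1 (adjusted p = 0.0627). Without PFSUV-IMQ replicate 2 the log2 fold change of Socs1 was 2.06 (adjusted p = 0.00216). Il6, an NF-kappaB target cytokine, rose from 0.567 ± 0.228 to 3.52 ± 2.52 CPM (log2 fold change 2.61, adjusted p = 0.0374). The Il6 call rests on 7 to 102 counts per tumor and held in only 1 of the 8 fits with a tumor left out, the fit without PFSUV-IMQ replicate 1 (adjusted p = 0.0260). In the other 7 fits its adjusted p was 0.0510 to 0.124, and without PFSUV-IMQ replicate 2 its log2 fold change was 2.003.

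In the other 5 lists 0 genes were called by edgeR's quasi-likelihood test, and the Wald test of DESeq2 and edgeR's exact test each called 1 in the IKK and NF-kappaB branch (Nfkbiz), 1 in the MAP kinase branch (Atf3) and 0 in the remaining 3. All 13 tested genes of the IKK and NF-kappaB branch had log2 fold changes above 0, from 0.10 for Ikbkb to 1.01 for Nfkbia (adjusted p = 0.865 and 0.155), with a median of 0.37 and with 3 at an unadjusted p under 0.05. Without PFSUV-IMQ replicate 2 the median of that branch was 0.21, Ikbkb was at 0.0066 and Nfkbia at 0.66, and Chuk, an IKK kinase gene, was at -0.029, the only one below 0 (chosen after its values were seen). Of the 14 genes of the MAP kinase branch 9 were above 0, from -0.48 for Map2k6 to 1.17 for Atf3 (adjusted p = 0.517 and 0.0869), with 2 at an unadjusted p under 0.05. The 4 tested of 5 other TIR adaptors ran from -0.59 for Ticam2 to 1.63 for Pik3ap1 (adjusted p = 0.674 and 0.247), 2 of them at an unadjusted p under 0.05, and Pik3ap1 was at 0.79 and Ticam2 at -1.07 without replicate 2. The 10 genes of endosomal receptor trafficking and processing ran from -0.12 for Lrrc59 to 1.01 for 5430427O19Rik (adjusted p = 0.857 and 0.350), and the 5 other TRAF genes from -0.12 for Traf7 to 0.49 for Traf5 (adjusted p = 0.864 and 0.226), with 1 in each list at an unadjusted p under 0.05, and 5430427O19Rik was at 0.40 without replicate 2. In the lists of the interferon branch, negative regulators and cytokine outputs, each with a called gene, the lowest were Irf3 at -0.03 (adjusted p = 0.970), Cd300a at -1.02 (adjusted p = 0.0592) and Il1b at -0.66 (adjusted p = 0.446). In these lists the Wald test of DESeq2 and edgeR's exact test both called Irf1, Ikbke, Usp25, Dusp1, Ccl2, Ccl4 and Cxcl1 higher and Cd300a lower as well, and the exact test also called Tnfaip3 higher.

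**Figure D4:**
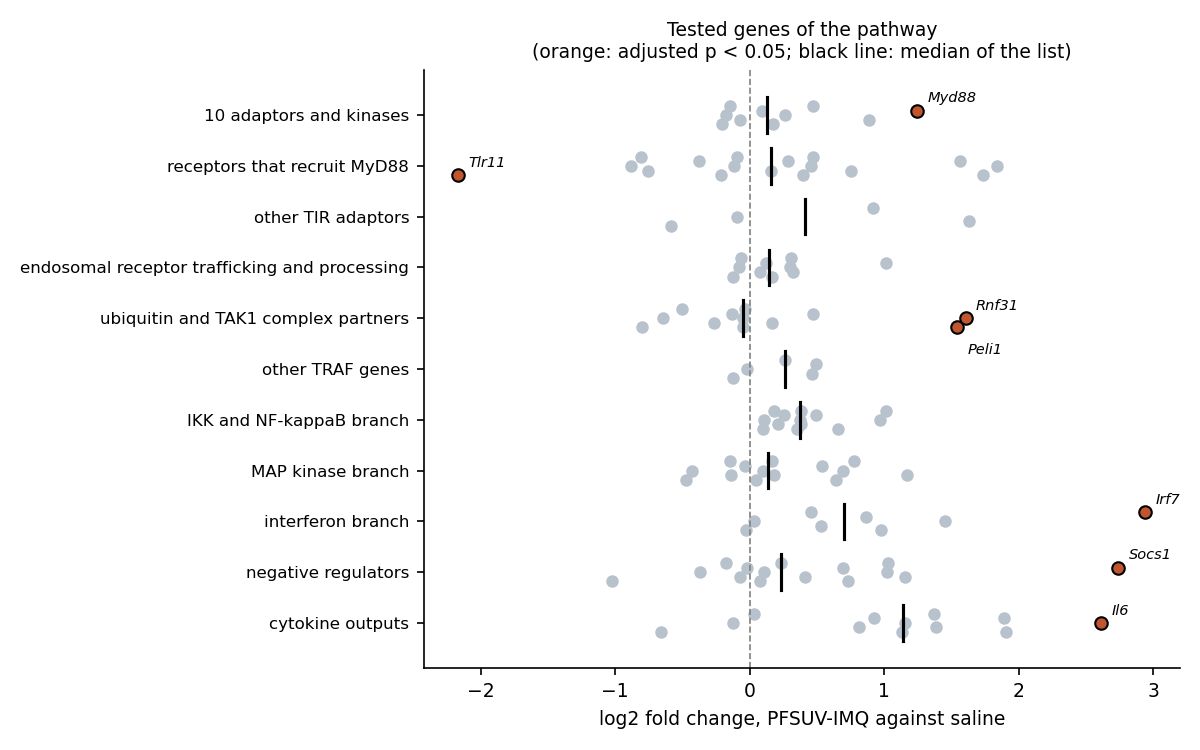
Log2 fold change of PFSUV-IMQ against saline (horizontal axis) for each tested gene, a point per gene, in the 10 adaptors and kinases (top line) and in the 10 lists of other pathway genes, with a black line at each median and orange for an adjusted p under 0.05. The genes Myd88, Peli1, Rnf31, Irf7, Socs1 and Il6 are called higher and Tlr11 lower.

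Of the 6 called genes of these lists, 2 held the ISRE core within the 250 bases before their RefSeq start in GRCm38.p6, none held the GAS letters, and 5 held the kappaB letters. The pair with the ISRE core moved in opposite directions, since Socs1 rose and Tlr11 fell, and their bases are shown for comparison with Myd88. They are chr16:10785597-10785626 on the minus strand for Socs1 and chr14:50357785-50357808 on the plus strand for Tlr11, 5′ to 3′ with the ISRE core in capitals, which in Socs1 is a pair of overlapping cores.
Socs1: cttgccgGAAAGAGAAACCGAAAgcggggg
Tlr11: aagtcatGAAACTGAAAgaaaaag

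Markers of the cells that use this pathway were read in the same libraries, by the summed CPM of each list. Leukocyte genes summed to 411 to 532 CPM after saline and 331 to 696 CPM after PFSUV-IMQ, and macrophage genes to 787 to 1146 and 578 to 1092 CPM, with 0 of 5 and 0 of 7 genes called higher and 1 macrophage gene, Vsig4, called lower. The summed plasmacytoid dendritic cell list was higher in every PFSUV-IMQ tumor, at 529 to 773 against 257 to 368 CPM. Only Bst2 lay apart between the groups, at 261 to 455 CPM after PFSUV-IMQ against 69.1 to 116 CPM after saline. Every other gene of the list overlapped between the groups. Of its 6 genes only Bst2, which interferon also induces, was called, at a log2 fold change of 1.91 (adjusted p = 0.00381), while Tcf4 (0.57), Ccr9 (0.56), Runx2 (0.25) and Pacsin1 (0.08) were above 0 and not called. Siglech, a defining marker of these cells, was the only gene of the list below 0, at -1.11 (adjusted p = 0.271), with 2.30, 4.57, 4.38 and 3.42 CPM after saline and 0.938, 3.14, 1.34 and 1.43 CPM after PFSUV-IMQ. Neutrophil genes summed to 17.6 to 61.2 and 34.4 to 155 CPM with 0 of 6 called, conventional dendritic cell genes to 81.1 to 111 and 64.1 to 103 CPM, T cell genes to 56.2 to 131 and 60.1 to 147 CPM, NK cell genes to 14.9 to 75.3 and 34.0 to 100.5 CPM, and B cell genes to 1.94 to 8.08 and 2.45 to 20.8 CPM. Endothelial genes summed to 93.2 to 153 and 73.2 to 112 CPM and fibroblast genes to 1699 to 2368 and 1986 to 5790 CPM, with 0 called in either list. By the summed lists of leukocytes, plasmacytoid dendritic cells (Bst2 included), neutrophils, T cells, NK cells and B cells, the highest tumor of the 8 was PFSUV-IMQ replicate 2. In that tumor Myd88, Unc93b1, Irak3, Irak4, Traf6 and Tirap were also highest, and the part of these cells in those values was not tested. Without that tumor the sums of leukocyte, neutrophil, T cell, NK cell and B cell genes were at most 480, 50.8, 88.4, 47.8 and 4.30 CPM after PFSUV-IMQ, none above the highest saline tumor. The plasmacytoid dendritic cell sum, which includes Bst2, then reached 694 CPM against at most 368 CPM after saline. Myd88 was then at 55.0 to 61.3 CPM against 29.0 to 31.7 CPM. Hepatocyte genes were almost as high in saline replicate 4, at 32314 CPM, as in PFSUV-IMQ replicate 2, at 32899 CPM, and Myd88 was at 30.5 CPM in that saline tumor and at 114 CPM in the PFSUV-IMQ tumor. This sets 1 tumor against 1, and the part of hepatocytes in the level of Myd88 was not tested.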

How the data were processed

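RNA of 8 tumors (4 per group, each from its own mouse) was made into KAPA mRNA HyperPrep libraries. The authors deposited whole-number counts of reads per gene, without normalization, and all tests used these counts. A second deposited table holds signal values, the counts divided by a DESeq2 size factor per tumor, and was used for gene symbols and for 1 alternative. The methods name TopHat and HTSeq, whereas the submitters' processing notes name Trimmomatic 0.38, HISAT2 2.1.0 and featureCounts 2.0.0. The genome build is not given in the sources used here. All 55536 identifiers occur in GENCODE M21 (GRCm38), which gave the coordinates and exon lengths. Within a group, the counts of every pair of tumors differed by more than sampling noise (chi-square per degree of freedom 29.4 to 287).

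Genes were tested by edgeR 4.0.16 under R 4.3.3 (TMM factors, filterByExpr, quasi-likelihood test, Benjamini-Hochberg adjustment over 15998 genes), all 8 tumors and no covariate, and were tested on simulated data first. Ratios were compared by exact permutation tests in scipy 1.17.1. Alternatives were size factors of DESeq2 or upper-quartile factors, dropping the filter, asking for 10 or more counts in every tumor, the Wald test of DESeq2 1.42.0, edgeR's exact test, a limit of 1 on the log2 fold change, the replicate number as a block, and each tumor left out in turn. The authors' size factors, and the ratios with their left-out tumors, were added after seeing the data.

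The 10 genes, the lists and the alternatives were chosen with earlier results of these data known. Named beside the 10 genes were Tlr7, the called genes of each list, its largest and smallest log2 fold change, and the 5 genes most like each called member. Promoter sequences were from RefSeq (GRCm38.p6). No sequencing batch is given in the labels or methods.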

Additional observations from a re-analysis of the deposited data

Results flagged for a closer look

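A value was singled out where a tumor's gap to the nearest of the other 3 in its group exceeded Dixon's 95% critical value, as a share of the group's range. Of 82 groups tested 12 held such a value, and 9 of the 12 lay in PFSUV-IMQ replicate 2. Chance gives about 1 in 20 for genes chosen without regard to their values, a rate that cannot be applied here, since some genes were chosen for the size of their change or for their likeness to Myd88. In that tumor Myd88 was at 114 CPM with the next tumor at 61.3 CPM, and Irak3 was at 17.3 CPM with the next at 4.96 CPM. In the same tumor, among the other pathway genes, Tlr2 was at 207 CPM (next 55.5 CPM), Pik3ap1 at 332 CPM (next 101 CPM), Irf7 at 848 CPM (next 425 CPM), Socs1 at 102 CPM (next 31.9 CPM) and Map2k6 low at 3.56 CPM (next 7.14 CPM). Of the genes most like Myd88, Rasgef1b was at 85.7 CPM (next 41.4 CPM) and Usb1 at 81.1 CPM (next 55.9 CPM), in PFSUV-IMQ replicate 2, which their choice by likeness over the same tumors already favours. Atf3 was at 131 CPM in PFSUV-IMQ replicate 1 (next 90.4 CPM), Rnf31 at 39.6 CPM in saline replicate 5 (next 29.2 CPM), and Cnn1 low at 0.652 CPM in saline replicate 5 (next 0.773 CPM).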

How the results depend on the processing

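Myd88 stayed called under the 8 alternatives that leave no tumor out, at adjusted p values from 6.69e-04 to 0.0322, and no other gene of the 10 was called under any alternative. Among these 8, the replicate block in effect compares the groups only within replicates 1, 3 and 4. Over all genes, 198 to 398 were called higher and 8 to 41 lower with each tumor left out in turn, of the 10 genes 0 to 1 higher and 0 lower, and of the other pathway genes 2 to 6 higher and 1 to 2 lower. Over all genes, edgeR without a filter called 64 lower, with 12 pathway genes higher, the Wald test of DESeq2 729 higher and 176 lower, with 16 pathway genes higher and 2 lower, and edgeR's exact test 627 higher and 110 lower, with 17 pathway genes higher and 2 lower. Both groups hold replicate numbers 1, 3 and 4, and the deviations of same-numbered tumors correlated at 0.294, -0.268 and -0.316. Among these numbers no saline tumor matched its own number best. With 3 shared numbers, this check cannot decide whether the numbers pair the tumors. The replicate block called 302 genes lower and 13 pathway genes higher, gave Myd88 a log2 fold change of 0.95, and turned Irak3 to -0.13 and Traf6 to -0.049, and the log2 fold change of Irak4 ran from -0.248 to 0.0069 with each tumor left out, above 0 only without PFSUV-IMQ replicate 1. Replicate 2 occurs only after PFSUV-IMQ and replicate 5 only after saline, so the block rests its group comparison on replicates 1, 3 and 4. Irak3, Traf6 and Irak4 were not called in any fit. Beyond this, the cause of their changes of sign was not tested. The log2 ratio of Myd88 to Irak4 differed by 1.15 to 1.36 between the groups with each tumor left out, at the smallest exact permutation p of 0.0571 that 3 against 4 tumors allow. Upper-quartile factors moved the median log2 fold change of all genes from -0.03 to -0.10. Of the 10 genes, depth limits Irak3 most, at 32 counts in its lowest tumor, and of the called pathway genes Il6 and Tlr11, at 7 and 13 counts.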
